A study of Mus musculus with 32 samples.

Results

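MPP2 is the multipotent progenitor fraction of mouse bone marrow that leans towards megakaryocytes and red cells, and the data described here are its transcriptomes in old and young animals. The comparison takes 4 of the 32 RNA-seq libraries of the series, the 2 MPP2 libraries of 20-month-old C57BL/6 mice (aged MPP2) and the 2 of 10-week-old C57BL/6 mice (young MPP2), and runs across all 14154 genes that passed a filter on low counts, of 24421 in the count table. The other libraries hold HSC, MPP1, MPP3, MPP4, GMP, MEP and CLP from mice of the same ages, in duplicate. The labels give no treatment for any of them. The study states that marrow of each age was pooled and sorted in duplicate and elsewhere calls such duplicates biologically independent. Whether 1 pool or several fed the duplicates is not given in the sources used here, so the p-values below measure a spread between libraries that may be technical. MPP2 cells were gated as lineage-negative, IL-7Rα-negative, Sca-1+, c-kit+, CD34+, CD150+, CD48+ and Flt3-.

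Blood formation runs from hematopoietic stem cells (HSC) through multipotent progenitors, which no longer renew themselves for long but still give rise to several lineages. MPP2 carries CD150 like the stem cell and CD48 like the other progenitors, MPP3 leans towards granulocytes and macrophages, and MPP4 towards lymphocytes. Megakaryocyte-erythroid progenitors (MEP) stand further down the path that MPP2 favours, under transcription factors such as GATA1 and KLF1. Ageing of the stem cell compartment is known for more stem cells by phenotype, weaker output of lymphocytes and more platelet-biased stem cells.

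Set against other fractions, the transcripts of Slamf1, Cd48 and Flt3 followed the gate. Slamf1, the gene of CD150, stood at 17.2 and 17.7 CPM (read counts scaled by library size with TMM factors) in the young MPP2 libraries and at 16.9 and 18.4 CPM in the aged ones, against means of 1.79 CPM in young MPP3 and 0.321 CPM in young MPP4. Cd48 was at 98.0 and 91.4 CPM in young MPP2, where young HSC averaged 1.05 CPM. Kit, Ly6a (Sca-1) and Cd34 were all present, and Il7r was at or below 0.493 CPM in every MPP2 library. Flt3, the antigen gated out, was read at 91.6 and 93.4 CPM in young MPP2 and 79.9 and 82.0 CPM in aged MPP2, well under the mean of 1060 CPM in young MPP4. Itga2b (CD41), an early marker of the megakaryocyte lineage, had a mean of 252 CPM in young MPP2, the highest of the 8 young fractions. With age, Cd48 rose 1.61-fold (log2 fold change 0.69 ± 0.11 SE, adjusted p = 0.000157) and Kit fell 1.40-fold (log2 fold change -0.48 ± 0.11 SE, adjusted p = 0.00415). The Kit call was lost in all 4 fits without 1 library. Slamf1, Ly6a, Cd34 and Flt3 did not pass the test.

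Depth was even: the young MPP2 libraries held 12460872 and 13222504 counts and the aged ones 14201154 and 14766841, within the series' range of 11237384 to 17723245. MPP2 was also the fraction with the closest duplicates. Over 8043 well-measured genes, the root mean square difference between duplicates was 0.164 on the log2 scale in young and 0.170 in aged MPP2, while the means of the 2 ages differed by 0.364.

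At an adjusted p under 0.01, 636 genes were higher and 469 lower in aged MPP2, 7.81% of the genes tested (4.49% higher, 3.31% lower). The rises were many and small and the falls fewer and steeper. A change of at least 1 on the log2 scale was reached by 53 of the higher and 178 of the lower genes, and the median over all genes tested was -0.017. Without the filter on low counts, 451 genes were higher and 508 lower. The test borrows its spread from all 32 libraries. When the 4 MPP2 libraries were fitted alone, 1749 genes were higher and 1587 lower (13.9% and 12.6%, together 26.6%, of the genes it tested), and 1098 of the genes called with all libraries were called there in the same direction. With 1 library of a group left out, fewer genes passed: 159 higher and 159 lower without young MPP2 replicate 1, 231 and 168 without young replicate 2, 261 and 128 without aged replicate 1, and 317 and 156 without aged replicate 2.

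**Figure D1:**
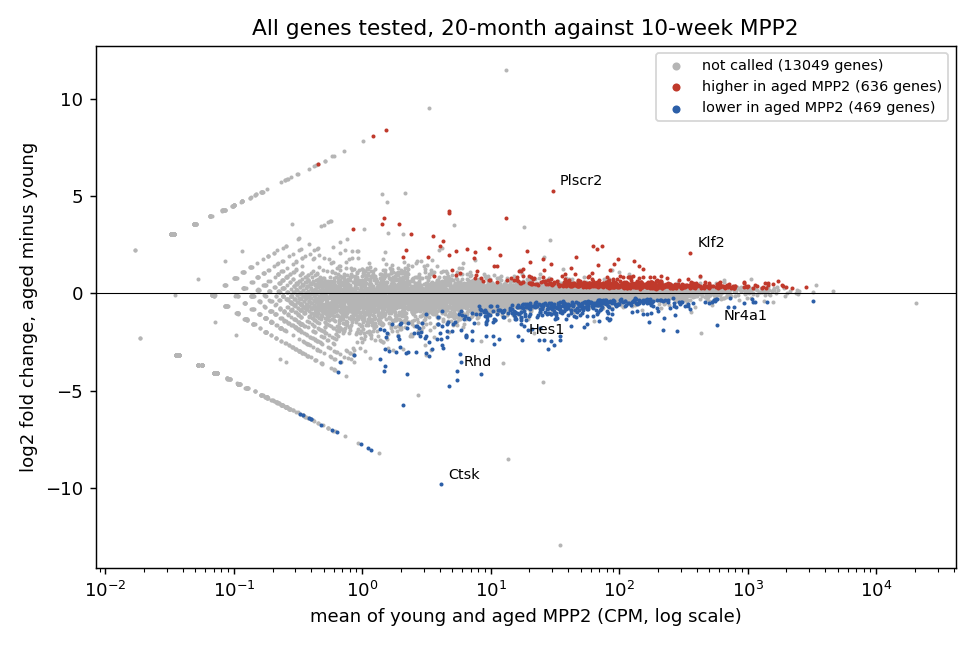
Every gene tested, by its mean level in young and aged MPP2 (x axis, CPM, log scale) and its log2 fold change, aged minus young (y axis). Red points are the 636 genes called higher, blue points the 469 called lower and grey points the rest. The diagonal streaks at the left are genes without a count in one of the ages, whose fitted fold change has no true size.

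Several of the largest rises were in genes that are also named for aged stem cells. Plscr2, a phospholipid scramblase gene on chromosome 9 (92275602 to 92297752, plus strand, GRCm38), was read at 1.26 and 1.76 CPM in young MPP2 and at 59.4 and 59.1 CPM in aged MPP2. It thus rose 38.8-fold (log2 fold change 5.28 ± 0.24 SE, adjusted p = 3.9e-09), and no other called gene with at least 5 CPM rose as far. Wwtr1, which encodes the Hippo pathway coactivator TAZ, went from 0.372 and 0.563 CPM to 9.16 and 8.66 CPM. Bmpr1a, a receptor for bone morphogenetic proteins, went from 0.446 and 0.563 CPM to 9.36 and 8.66 CPM. For both genes the young libraries rest on 5 to 8 counts. Tmem215 rose from 1.49 and 1.90 CPM to 23.9 and 25.3 CPM, and Aldh1a1, an aldehyde dehydrogenase that makes retinoic acid, from 20.4 and 24.6 CPM to 123 and 124 CPM. In each of these 5 genes both aged libraries stood above both young ones, and each call held in all 4 fits without 1 library.

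Smaller in level were Fcgr4 and Fcer1a, chains of Fc receptors, the imprinted Notch ligand relative Dlk1, Erdr1 and Aspa, which went from between 0.704 and 3.27 CPM in young to between 6.11 and 16.3 CPM in aged MPP2. The inducible heat shock genes Hspa1a and Hspa1b rose to 96.9 and 113 CPM and to 103 and 121 CPM. They are near-identical copies whose reads can be shared, so they count as 1 observation. Of this group only Erdr1 stayed called in every fit without 1 library. Fcgr4 was called in none of those 4 fits, Hspa1a, Hspa1b and Aspa in 1, and Fcer1a and Dlk1 in 3.

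By smallest p rather than by size, the list was led by well-expressed genes with narrow errors. Selp, the gene of P-selectin, was at 63.4 and 60.9 CPM in young and 199 and 200 CPM in aged MPP2, a 3.21-fold rise (adjusted p = 1.55e-07). Emilin2, an extracellular matrix glycoprotein gene, rose from 51.1 and 51.8 CPM to 114 and 119 CPM. Arid5a, which encodes an RNA-binding regulator of inflammatory messages, went from 40.8 and 40.3 CPM to 72.5 and 79.1 CPM. Ddx39, a helicase of mRNA processing and export, went from 151 and 154 CPM to 245 and 236 CPM. The gene listed as D17H6S56E-5 went from 1330 and 1340 CPM to 2100 and 2060 CPM. Clu, the other gene often cited beside Selp for aged stem cells, was at 5.50 and 4.23 CPM in young and 4.48 and 3.91 CPM in aged MPP2, so the groups overlapped (adjusted p = 0.697).

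**Figure D2:**
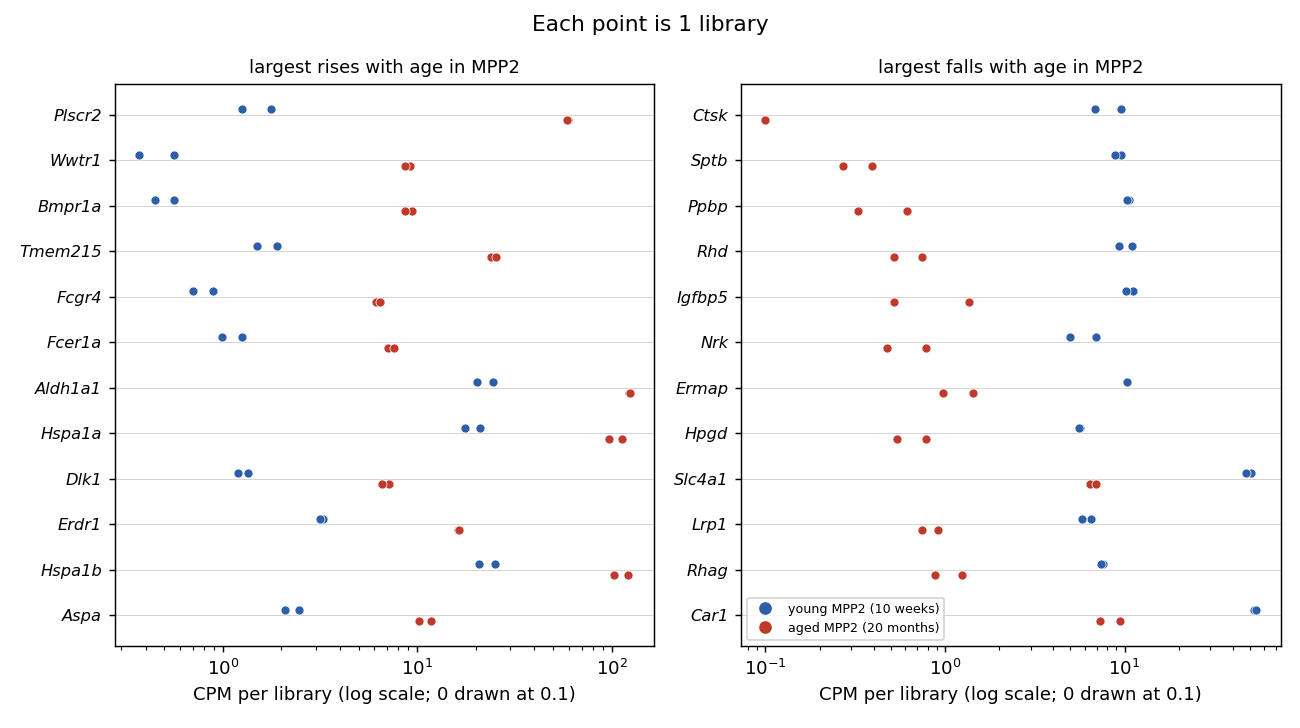
The 12 largest rises (left) and 12 largest falls (right) among called genes with at least 5 CPM in the higher group, as CPM in each library on a log axis, blue for young and red for aged MPP2. A value of 0, met only in Ctsk, is drawn at 0.1. In all 24 genes the young and aged points are apart.

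Over the 48 tested of 49 genes listed for aged stem cells, 14 rose and 3 fell, and the median log2 fold change was 0.16. Members of the list were put together with results on aged stem cells in mind, so their direction is no independent evidence. Selp, Plscr2, Wwtr1, Bmpr1a, Aldh1a1 and Dlk1 were among the risers, with Clca3a1, Nupr1, Neo1, Rorb, Klf6, Cpne8, Mt1 and Cd74. Nr4a1, Ier2 and Mllt3 passed downwards. Without 1 library, 6 to 10 of the list were higher and 3 lower, and the median lay between -0.01 and 0.37.

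Among the falls, genes of red cell precursors were the most numerous of any list. Of the 40 tested of 43 red cell and heme genes, 19 were lower and 1 was higher in aged MPP2, with a median log2 fold change of -1.61. The summed level of the list went from 3720 and 3950 CPM in young to 2060 and 2030 CPM in aged MPP2. Sptb, the beta-spectrin of the red cell skeleton, was at 9.52 and 8.80 CPM in young and at 0.271 and 0.391 CPM in aged MPP2. Rhd and Rhag, which form the Rhesus complex of the red cell membrane, fell from 9.37 and 11 CPM to 0.746 and 0.521 CPM and from 7.58 and 7.39 CPM to 0.882 and 1.24 CPM. Ermap, an erythroid membrane protein gene, went from 10.3 CPM in both young libraries to 1.43 and 0.977 CPM. Slc4a1, the anion exchanger known as band 3, fell from 50.6 and 47.7 CPM to 6.45 and 6.90 CPM, and Car1, carbonic anhydrase 1, from 52.8 and 54.0 CPM to 7.26 and 9.44 CPM. Tspo2, read 37 and 24 times in the young libraries and never in the aged ones, was at least 11.1-fold lower against a floor of 3 counts per library. Young and aged libraries did not overlap in any of these genes. The 1 member that rose was Tfrc, the transferrin receptor, which dividing cells of any lineage use, and no member was higher in any fit without 1 library. With 1 library left out, 9 to 12 members were lower and the median lay between -1.72 and -1.24. Slc4a1 was then called in none of the 4 fits and Car1 in 2.

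The alpha-globin gene Hba-a1 was at 125 and 131 CPM in young and 22.8 and 29.9 CPM in aged MPP2 and did not pass (adjusted p = 0.0813). Hbb-bs was uneven between duplicates, with 729 and 2 counts in young and 1 count in each aged library, so nothing is drawn from it.

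Transcription factors of these lineages were also among the lower genes. Of the 22 listed for megakaryocytes and red cells, 7 were lower and none higher, with a median log2 fold change of -0.35, and 2 to 3 remained lower with 1 library left out. Klf1, the main activator of the beta-globin locus, fell from 15.2 and 15.5 CPM to 5.84 and 5.14 CPM (2.80-fold, adjusted p = 0.00022). Gata1 fell from 45.3 and 46.3 CPM to 31.4 and 27.2 CPM (1.56-fold, adjusted p = 0.00788), and this call was lost in all 4 fits without 1 library. The corepressor gene Cbfa2t3 (ETO2) went from 161 and 168 CPM to 84.4 and 83.7 CPM, and Gfi1b, a repressor needed in both lineages, from 99.0 and 103 CPM to 62.8 and 64.5 CPM. Mef2c, Runx1 and Lmo2 were the other members called lower. Gfi1b, Runx1 and Lmo2 were called in none of the fits without 1 library and Mef2c in 2.

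Of the 36 tested of 39 megakaryocyte and platelet genes, 10 were lower and 1 was higher, with a median log2 fold change of -0.60. Transcripts of alpha granule contents were among the falls. Ppbp, the platelet chemokine precursor, was at 10.6 and 10.3 CPM in young and 0.611 and 0.326 CPM in aged MPP2. Pf4 (platelet factor 4) went from 32 and 33.9 CPM to 8.89 and 9.38 CPM, and Thbs1 (thrombospondin 1) from 18.2 and 17.8 CPM to 3.12 and 2.87 CPM. Gp9, a subunit of the von Willebrand factor receptor, went from 21.3 and 22.8 CPM to 8.82 and 9.18 CPM. Selp, the 1 member that rose, also belongs to platelets. Itga2b did not pass, with means of 252 CPM in young and 271 CPM in aged MPP2. Without 1 library, 5 to 6 members stayed lower and Pf4 was called in none of the fits.

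Genes listed for other cell types were also among the lower genes, and which cells their transcripts came from was not measured. Of 40 tested macrophage and iron recycling genes, 15 were lower and 1 was higher (median -1.05), and the summed level went from 4500 and 4670 CPM to 3500 and 3770 CPM. Vcam1, Slc40a1 (ferroportin) and Hmox1 (heme oxygenase 1), genes of the macrophages that surround and clear red cells, fell from 46.6 and 52.8 CPM to 10.0 and 8.53 CPM, from 59.3 and 55.1 CPM to 12.9 and 12.1 CPM, and from 44.7 and 42.5 CPM to 8.41 and 8.20 CPM. The macrophage markers C1qa and Cd163 were read at 5.97 and 6.06 CPM and at 8.55 and 11.1 CPM in aged MPP2. Of 39 neutrophil granule and myeloid genes, 14 were lower and 1 was higher (median -0.56), and the list's summed level went from 3900 and 4160 CPM to 3020 and 3010 CPM. Ngp, a protein of neutrophil granules, went from 243 and 257 CPM to 87.9 and 89.5 CPM. Endothelial and stromal genes had 4 of 23 tested lower and none higher (median -1.02, summed level 771 and 749 CPM in young, 559 and 572 CPM in aged). Among them was Cxcl12, a chemokine of marrow stroma, at 57.9 and 58.1 CPM in young and 12.5 and 9.64 CPM in aged MPP2, and Cdh5 and Col1a1, which define endothelium and bone, were at or below 0.372 CPM in every library. Of 34 tested lymphocyte genes, 1 was called, the pre-B gene Igll1, read 10 and 12 times in the young libraries and never in the aged ones. The median of that list was -0.76, or -0.41 with genes lacking counts at their bound, and its summed level was 399 and 424 CPM in young and 420 and 412 CPM in aged MPP2. The B cell marker Ms4a1 had no count in the aged libraries and at most 0.446 CPM in the young. With 1 library left out, 5 to 8 macrophage, 3 to 5 neutrophil and 1 endothelial or stromal gene stayed lower, and none of these lists had a gene called higher. In bulk libraries, fewer cells of a type and less RNA per cell cannot be told apart, and the part that these other transcripts have in the falls of the red cell and platelet lists was not tested.

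Ctsk, cathepsin K of osteoclasts, had the steepest fall of the called genes with at least 5 CPM, from 92 and 135 counts in young MPP2 to none in either aged library, at least 41.0-fold against the same floor. It was above 6 counts in none of the other 30 libraries of the series, and its call was lost in all 4 fits without 1 library. Igfbp5, Nrk, Hpgd and Lrp1 made up the rest of the 12 largest falls, each from between 4.98 and 11.2 CPM to between 0.475 and 1.36 CPM. Igfbp5 and Hpgd were called in none of the fits without 1 library, with adjusted p of up to 0.104 and 0.0867, and missed the threshold with the replicate block within fraction (adjusted p = 0.0219 and 0.0224).

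By smallest p, the falls were led by Hes1, the Notch-responsive repressor (chromosome 16, 30064384 to 30067796, plus strand, GRCm38). It was at 29.7 and 28.9 CPM in young and 5.36 and 5.86 CPM in aged MPP2 (5.22-fold, adjusted p = 3.9e-09). Notch1 itself was at 54.1 and 46.4 CPM in young and 30.6 and 33.2 CPM in aged MPP2 and missed the threshold (adjusted p = 0.053). Ebi3, a subunit of interleukins 27 and 35, fell from 38.6 and 41.8 CPM to 7.33 and 7.94 CPM, the integrin subunit gene Itgb5 from 18.7 and 19.6 CPM to 3.53 and 4.04 CPM, and the actin-severing protein gene Gsn from 53.7 and 55.4 CPM to 21.4 and 21.9 CPM. Each of these 4 calls held in every fit without 1 library.

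**Figure D3:**
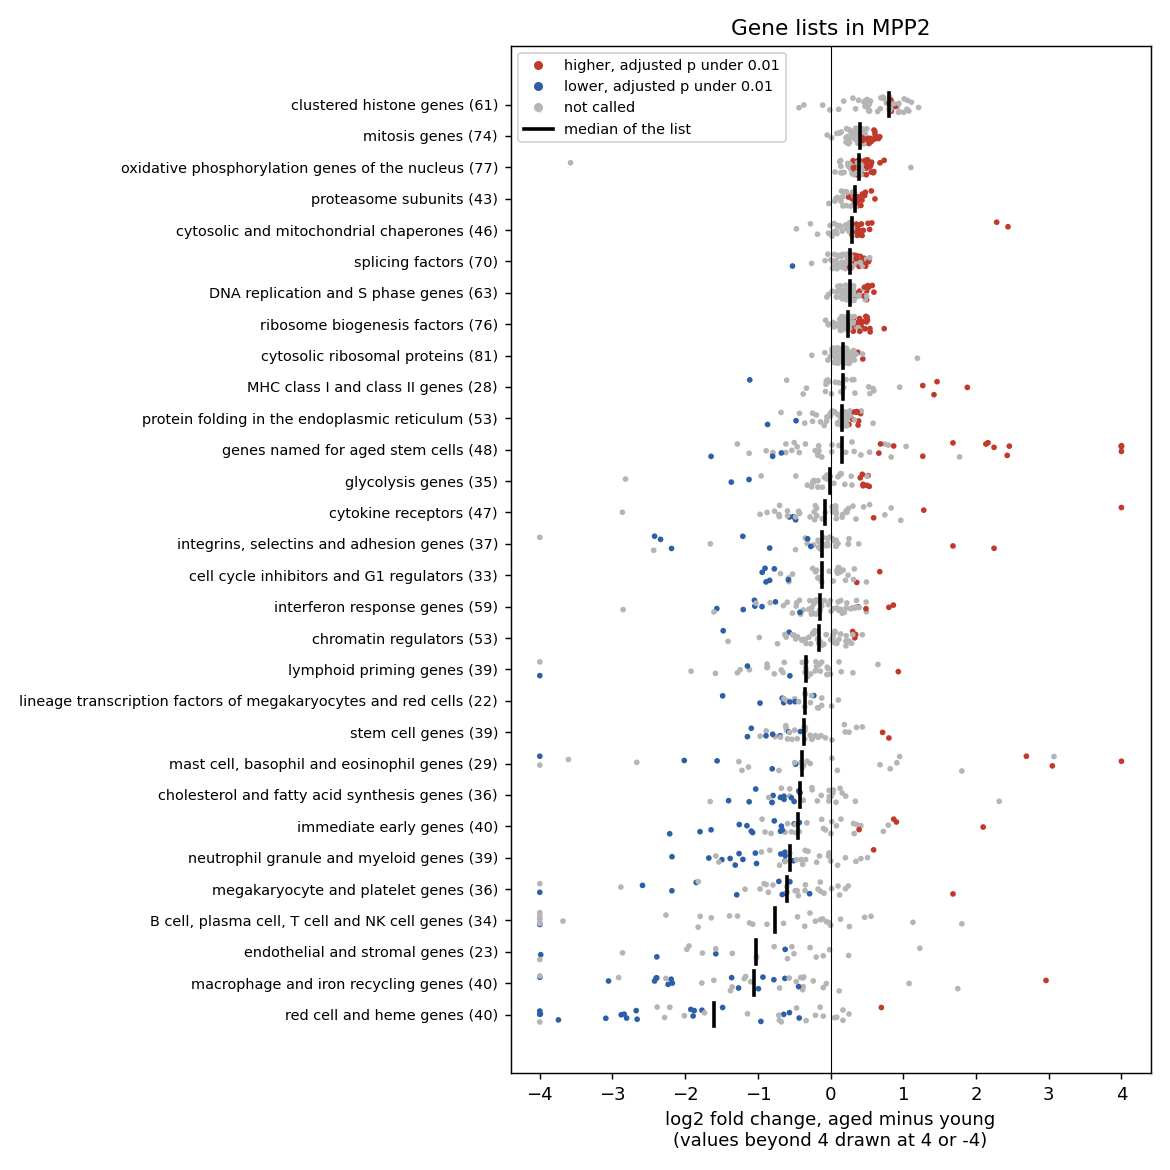
Log2 fold change, aged minus young MPP2, of each tested member of 30 gene lists, with the number tested in brackets and the list's median as a black bar. Red and blue points passed the test upwards and downwards. The lists at the top shift by under 1 as a body, and red cell and macrophage genes at the bottom spread down to -4 and beyond.

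Of 74 mitosis genes, 26 were higher, none was lower and 48 did not pass. The log2 fold changes ran from -0.05 to 0.68, with a median of 0.40 and 73 of them above 0. Cdk1, the kinase that drives entry into mitosis, was at 140 and 149 CPM in young and 214 and 212 CPM in aged MPP2 (1.47-fold, adjusted p = 0.000107). Its partners Ccnb1 and Ccna2 rose from 164 and 167 CPM to 255 and 247 CPM and from 330 and 320 CPM to 472 and 466 CPM. Aurkb, the kinase of the chromosomal passenger complex, went from 153 and 159 CPM to 240 and 242 CPM, its partner Birc5 (survivin) from 119 and 115 CPM to 178 and 179 CPM, and the spindle kinase gene Aurka from 82.4 and 86.3 CPM to 123 and 124 CPM. With 1 library left out, 9 to 14 mitosis genes passed and the median stayed between 0.39 and 0.44. In the fit of the 4 MPP2 libraries alone, 62 were higher.

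DNA replication genes followed, with 14 of 63 higher, none lower and a median of 0.26. Rrm1 and Rrm2, the subunits of ribonucleotide reductase, went from 604 and 601 CPM to 826 and 839 CPM and from 194 and 198 CPM to 281 and 277 CPM. Tyms, thymidylate synthase, went from 143 and 137 CPM to 215 and 208 CPM. Between 4 and 7 of the list passed without 1 library. Of 61 tested clustered histone genes, 12 were higher and none lower (median 0.81), all of them H2A genes. These H2A copies are near-identical and had almost the same fold change (0.83 in Hist1h2ad, Hist1h2ai and Hist1h2ah), so they cannot be taken as separate observations, and between 0 and 10 were called with 1 library left out.

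Regulators of the G1 phase were divided. Of 33 tested, 2 were higher and 6 lower. Cdkn1a, the inhibitor p21, fell from 36.3 and 33.8 CPM to 16.7 and 19.8 CPM, and Ccnd2, cyclin D2, from 262 and 264 CPM to 142 and 139 CPM. Cdkn2c, the inhibitor p18, rose from 56.1 and 51.1 CPM to 86.0 and 85.2 CPM. Cdk4 rose from 577 and 608 CPM to 766 and 756 CPM, a call that held in 1 of the 4 fits without 1 library.

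The promoters of 5 called genes are shown because most called members of their lists changed in the same direction, and these were picked for holding the motif. Ncapg, a condensin subunit gene, had a log2 fold change of 0.68 and Kel one of -3.74. They are the 250 bases before the RefSeq transcription start (GRCm38.p6), 5′ to 3′ on the strand of the gene. In Cdk1 (chr10:69352913-69353162, minus strand) and Ncapg (chr5:45669675-45669924, plus strand), capitals mark the CCAAT box (CCAAT or ATTGG) and the cell cycle homology region (TTTGAA or TTCAAA), elements found in many mitosis promoters. In Rhd (chr4:134864286-134864535, plus strand) and Kel (chr6:41704326-41704575, minus strand), a blood group gene, they mark the GATA motif (AGATAA or TTATCT). In Insig1 (chr5:28071162-28071411, plus strand), a cholesterol gene, they mark the CCAAT box.
Cdk1: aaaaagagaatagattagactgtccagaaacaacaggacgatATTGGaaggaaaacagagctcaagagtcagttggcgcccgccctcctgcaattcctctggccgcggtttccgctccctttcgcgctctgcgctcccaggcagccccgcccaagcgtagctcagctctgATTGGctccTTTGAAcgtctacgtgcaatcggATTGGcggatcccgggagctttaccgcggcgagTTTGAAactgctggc
Ncapg: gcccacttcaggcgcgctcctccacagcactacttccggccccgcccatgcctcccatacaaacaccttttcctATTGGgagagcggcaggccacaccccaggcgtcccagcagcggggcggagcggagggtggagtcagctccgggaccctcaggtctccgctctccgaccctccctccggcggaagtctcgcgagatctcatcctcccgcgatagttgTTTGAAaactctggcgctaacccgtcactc
Rhd: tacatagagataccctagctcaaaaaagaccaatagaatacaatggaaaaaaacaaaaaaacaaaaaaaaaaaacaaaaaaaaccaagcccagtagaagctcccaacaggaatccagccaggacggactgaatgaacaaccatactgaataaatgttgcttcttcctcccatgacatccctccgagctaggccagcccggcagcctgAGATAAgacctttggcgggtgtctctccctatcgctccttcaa
Kel: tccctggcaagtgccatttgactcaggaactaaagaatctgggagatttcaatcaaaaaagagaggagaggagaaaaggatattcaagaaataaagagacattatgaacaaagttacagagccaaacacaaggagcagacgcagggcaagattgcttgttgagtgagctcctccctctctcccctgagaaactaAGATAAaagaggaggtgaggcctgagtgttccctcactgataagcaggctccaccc
Insig1: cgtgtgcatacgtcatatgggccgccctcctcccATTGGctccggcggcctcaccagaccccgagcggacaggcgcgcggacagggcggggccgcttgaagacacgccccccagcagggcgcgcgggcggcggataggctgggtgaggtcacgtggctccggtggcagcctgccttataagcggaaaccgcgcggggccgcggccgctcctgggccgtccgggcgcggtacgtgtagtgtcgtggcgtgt

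Over windows of 250 bases before to 50 after the start, 66.7% of the 60 tested mitosis genes with a promoter in the table held the cell cycle homology region and 75.0% a CCAAT box, against 14.3% and 42.5% of the 10646 tested genes that matched. The E2F motif (TTCCCGC or GCGGGAA) was in 37.5% of 48 replication genes and 9.52% of all. GATA letters were in 31.0% of 29 red cell genes and 8.28% of all. The CCAAT box was in 80.0% of 25 cholesterol genes. Among called members the shares were 65.0% for both mitosis motifs (20 genes with a promoter), 33.3% for E2F in replication genes (12 genes) and 21.4% for GATA in red cell genes (3 of 14), each below that of all tested members, and 7 of 7 called cholesterol genes held a CCAAT box. Of the genes called higher in aged MPP2, 489 had a promoter in the table, and 16.8% of these held the cell cycle homology region, 46.4% a CCAAT box and 12.7% the E2F motif. Of those called lower, 357 had one, and 11.2% held the GATA motif. A match is a run of letters on either strand and no evidence of binding.

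Lists of RNA processing, protein folding and protein breakdown had mostly calls upwards. Among 76 ribosome biogenesis factors, 20 were higher and none lower (median 0.24), such as the nucleolar protein gene Noc4l, from 65.0 and 68.5 CPM to 111 CPM in both aged libraries, and Fbl, the methyltransferase fibrillarin, from 239 and 236 CPM to 330 and 340 CPM. Of 81 ribosomal protein genes, 2 were higher and none lower, with a median of 0.17 and 77 of them above 0. Of 70 splicing factors, 20 were higher and 1 lower (median 0.26). Prpf31 rose from 116 and 115 CPM to 162 and 171 CPM, Srsf2 from 664 and 669 CPM to 818 and 796 CPM, and Srsf5 fell from 419 and 385 CPM to 277 and 282 CPM. Chaperones had 22 of 46 higher and none lower (median 0.29). The called members included subunits of the CCT ring, which folds actin and tubulin, with Cct8 going from 417 and 410 CPM to 584 and 597 CPM. Of 43 proteasome genes, 21 were higher and none lower (median 0.33), for example the lid subunit gene Psmd13, from 139 and 143 CPM to 212 and 204 CPM. In folding factors of the endoplasmic reticulum, 9 of 53 were higher and 2 lower, with Calr (calreticulin) rising from 999 and 1010 CPM to 1200 and 1210 CPM and Dnajb9, a cochaperone induced by unfolded protein, falling from 65.4 and 60.4 CPM to 34.6 and 34.4 CPM. Without 1 library the counts higher were 5 to 8 for ribosome biogenesis, 5 to 13 for splicing, 11 to 16 for chaperones and 3 to 9 for the proteasome, and all 4 medians stayed above 0.

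Of 77 nuclear genes of oxidative phosphorylation, 39 were higher, none was lower and 38 did not pass, and the median was 0.39. Cyc1, cytochrome c1 of complex III, went from 150 and 153 CPM to 249 and 237 CPM, and Atp5b, the catalytic subunit of ATP synthase, from 1610 and 1570 CPM to 2130 and 2100 CPM. With 1 library left out, 7 to 16 passed and the median lay between 0.35 and 0.43. In glycolysis, 7 of 35 genes were higher and 2 lower, with a median of -0.01. Ldha was among the higher ones, from 1120 and 1130 CPM to 1670 and 1580 CPM, with Pgk1 from 302 and 312 CPM to 443 and 434 CPM and Pkm from 1210 and 1220 CPM to 1640 and 1650 CPM, while Vegfa and Aldoc were the members that fell.

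Of 36 tested genes of cholesterol and fatty acid synthesis, 12 were lower and none higher, with a median of -0.42. Srebf2, the transcription factor that switches the pathway on, fell from 343 and 340 CPM to 211 and 212 CPM, and its targets Insig1, Sqle and Fdps from 68.9 CPM in both young libraries to 33.1 and 34.4 CPM, from 87.2 and 96.8 CPM to 53.7 and 52.7 CPM, and from 67.7 and 71.6 CPM to 44.9 and 44.5 CPM. Between 6 and 8 members stayed lower without 1 library, and these 4 genes were called in each of those fits.

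Immediate early genes, which cells switch on within minutes of a signal or of handling, were split between strong rises and falls. Of 40, 4 were higher and 13 lower (median -0.45). Klf2, a factor of quiescence, rose from 130 and 140 CPM to 556 and 597 CPM (4.28-fold, adjusted p = 4.26e-06), with Fosb, Klf6 and Rhob the other members higher. Nr4a1 fell from 908 and 830 CPM to 250 and 306 CPM, the phosphatase gene Dusp2 from 362 and 374 CPM to 171 and 175 CPM, Dusp5 from 89.3 and 83.7 CPM to 36.2 and 41.7 CPM, and Ier2 from 865 and 875 CPM to 531 and 557 CPM. Fos, the most abundant of those named, was at 2910 and 2930 CPM in young and 3810 and 3990 CPM in aged MPP2 and did not pass (adjusted p = 0.241). With 1 library left out, 1 to 3 were higher and 5 to 6 lower.

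Of 28 tested MHC class I and class II genes, 4 were higher and 1 lower, all of them of class II. H2-Ab1 went from 71.8 and 81.6 CPM to 203 and 208 CPM (adjusted p = 2.1e-05), H2-Eb1 from 18.3 and 21.1 CPM to 73.4 and 72.0 CPM, H2-Aa from 35.7 and 36.8 CPM to 101 and 99.0 CPM, and Cd74, the invariant chain, from 90.3 and 90.6 CPM to 217 and 219 CPM. H2-Ob, which slows peptide loading, fell from 45.1 and 43.4 CPM to 22.7 and 18.3 CPM. B2m, the light chain of class I, was at 2330 and 2460 CPM in young and 2610 and 2570 CPM in aged MPP2 (adjusted p = 0.355). Without 1 library, 1 to 2 of the list were higher, and H2-Aa and Cd74 lost the call in all 4 fits. Interferon response genes had 4 of 59 higher and 7 lower, with Rsad2 falling from 40.1 and 39.8 CPM to 20.8 and 18.0 CPM and Ifitm1 rising from 165 and 177 CPM to 297 and 299 CPM.

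Stem cell genes had 7 of 39 tested lower and 2 higher (median -0.36), with 3 to 4 lower without 1 library. Mllt3, which maintains stem cells, fell from 51.3 and 47.1 CPM to 26.1 and 30.5 CPM, and Pdzk1ip1 from 52.9 and 54.8 CPM to 25.1 and 25.5 CPM. The defining stem cell genes Procr, Hlf and Mecom did not pass. In lymphoid priming, 3 of 39 genes were lower and 1 higher. The median log2 fold change was -0.34, with 33 members below 0 and 5 above. The 1 member called higher, against the direction of its list, was Dntt, the terminal transferase of early lymphoid cells. It went from 4.61 and 5.99 CPM to 9.70 and 10.5 CPM (adjusted p = 0.000241). Among 47 cytokine receptors, 3 were higher and 3 lower, including Il1r1, an interleukin 1 receptor, from 25.3 and 24 CPM to 59.7 and 60.2 CPM. The share called was 23.1% in stem cell, 10.3% in lymphoid priming, 12.8% in cytokine receptor, 24.3% in adhesion and 9.43% in chromatin regulator genes. Over all genes tested it was 7.81%. Adhesion genes had 2 of 37 higher and 7 lower, and chromatin regulators 3 of 53 higher and 2 lower. In the latter the DNA methyltransferases went apart, Dnmt3a from 120 and 117 CPM to 78.1 and 81.3 CPM and Dnmt1 from 576 and 581 CPM to 718 and 751 CPM, the Dnmt1 call being lost in all 4 fits without 1 library.

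The age difference of MPP2 was next set against those of MPP1, MPP3 and MPP4, each with its own young and aged libraries. Marrow was pooled by age before sorting, so the fractions of an age may come from the same animals. Calls shared between fractions may therefore not be independent. Of the 636 genes higher in aged MPP2, 88.8% were also called higher in aged MPP3, 88.4% in aged MPP4 and 64.8% in aged MPP1. Of the genes called higher in those fractions, 49.0%, 38.5% and 61.8% were higher in aged MPP2. For the 469 lower genes the shares were 83.4% in MPP3, 67.0% in MPP4 and 43.5% in MPP1, and those of the other fractions' lower genes 47.7%, 35.4% and 68.9%. No gene was called in opposite directions in MPP2 and MPP1 or MPP3. Between MPP2 and MPP4 there were 4, Rhob, Socs2 and Wfdc17 higher in aged MPP2 and lower in aged MPP4, and C3 the reverse.

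**Figure D4:**
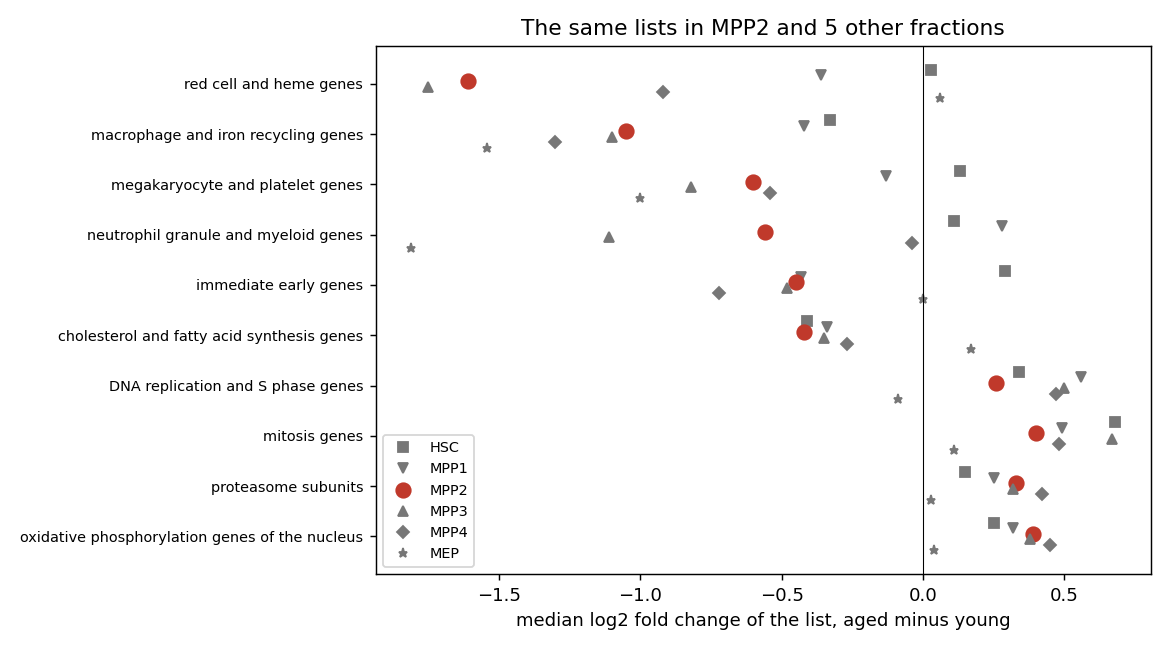
Median log2 fold change, aged minus young, of 10 gene lists in MPP2 (red circles) and in HSC, MPP1, MPP3, MPP4 and MEP (grey symbols). For red cell and heme genes MPP2 lies at -1.61 beside MPP3 at -1.75, with HSC and MEP near 0. GMP and CLP are not drawn.

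The list medians describe where fractions differ, with no test of a list. For red cell and heme genes the median was -1.61 in MPP2 and -1.75 in MPP3, where 21 of the 40 were lower. It was -0.92 in MPP4 with 6 lower, -0.36 in MPP1 with 1 lower and 0.03 in HSC with 0 lower. Outside these fractions it was also below 0 in GMP, at -0.78, and in CLP, at -0.58. Medians of endothelial and stromal genes were -1.02 in MPP2, -1.94 in MPP3, -0.87 in MPP4, -0.13 in MPP1 and 0.0 in HSC, and those of macrophage genes -1.05, -1.1, -1.3, -0.42 and -0.33, and their part in the red cell medians was not tested. Over all genes tested, the share called lower was 5.79% in MPP3, 2.09% in MPP1, 6.27% in MPP4 and 1.66% in HSC, and the share called higher 8.14%, 4.71%, 10.3% and 3.74%. Mitosis genes had medians of 0.40 in MPP2, 0.49 in MPP1, 0.67 in MPP3 and 0.48 in MPP4, and replication genes 0.26, 0.56, 0.50 and 0.47. Cholesterol genes had medians below 0 in all 4, from -0.42 in MPP2 to -0.27 in MPP4. Megakaryocyte and platelet genes had medians of -0.6 in MPP2, -0.13 in MPP1, -0.82 in MPP3, -0.54 in MPP4 and 0.13 in HSC. For the transcription factors of megakaryocytes and red cells they were -0.35, -0.32, -0.42, -0.36 and -0.07.

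In the test of the difference itself, MPP2 was set against the mean of MPP1, MPP3 and MPP4. Of the genes tested, 4 passed (0.0283%), 3 with a greater (0.0212%) and 1 with a smaller (0.00707%) age difference in MPP2. Greater means higher on the signed log2 scale, so a lesser fall in MPP2 also counts as greater. At an unadjusted p under 0.05 there were 467 genes, 3.30% of those tested, and DESeq2 called 12 greater and 19 smaller. Prg2, the major basic protein of eosinophils, had 760 and 865 counts in young and 644 and 687 in aged MPP2. It went from 317 and 341 counts to 0 and 8 in MPP1, from 1301 and 1095 to 4 and 3 in MPP3, and from 27 and 24 to none in MPP4 (adjusted p of the difference 0.000232). Epx, eosinophil peroxidase, which did not pass, had 149 and 141 counts in young and 303 and 291 in aged MPP2, against 69 and 93 counts in young and none in aged MPP1, and 337 and 335 in young and 3 and 0 in aged MPP3. Of the 29 tested mast cell, basophil and eosinophil genes, 3 were higher and 5 lower in aged MPP2, with a median log2 fold change of -0.39, and their summed level went from 2410 and 2400 CPM to 1950 and 1930 CPM. Prg2 was the 1 member of that list whose age difference differed from the other fractions.

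Socs2, a feedback inhibitor of cytokine signals, rose in aged MPP2 from 16.5 and 15.9 CPM to 25.9 and 27.3 CPM, while its mean went from 41.0 to 45.3 CPM in MPP1, where it did not pass, from 15.0 to 9.71 CPM in MPP3 and from 5.36 to 1.90 CPM in MPP4. Sdc1 (syndecan 1) was at 17.6 and 16.8 CPM in young and 23.5 and 24.2 CPM in aged MPP2 (adjusted p = 0.0299), and its mean went from 25.4 to 32.3 CPM in MPP1, from 39.5 to 25.9 CPM in MPP3 and from 157 to 49.2 CPM in MPP4. The log2 fold changes of Sdc1 were thus 0.47 in MPP2, 0.35 in MPP1, -0.60 in MPP3 and -1.67 in MPP4. Emilin2 rose in all 4 fractions, with a log2 fold change of 1.18 in MPP2, 1.51 in MPP3, 2.29 in MPP1 and 2.38 in MPP4. None of these 4 differences passed once the replicate number within each fraction was a block, a fit with fewer residual degrees of freedom. Without young MPP2 replicate 1, 1 gene passed, without young replicate 2, 2, without aged replicate 1, 2, and without aged replicate 2, 1.

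**Figure D5:**
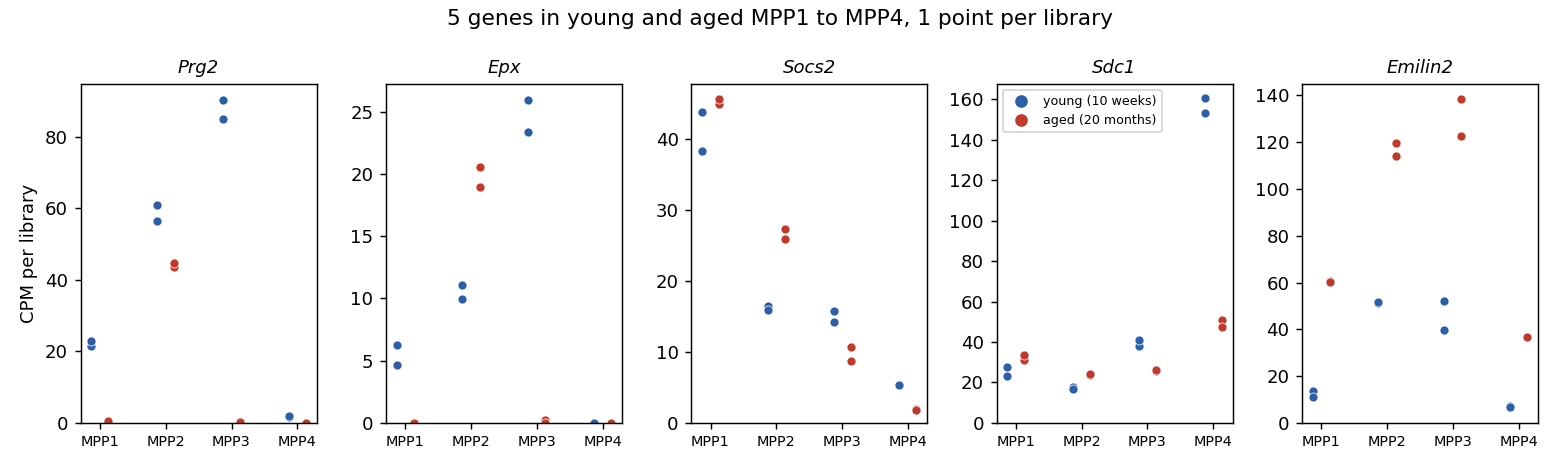
CPM of Prg2, Epx, Socs2, Sdc1 and Emilin2 in each young (blue) and aged (red) library of MPP1, MPP2, MPP3 and MPP4. Prg2 and Epx stay in aged MPP2 and are near 0 in aged MPP1 and MPP3, and Emilin2 is higher with age throughout.

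Against MEP, the next step of the megakaryocyte and red cell path, the age difference of MPP2 differed at 2285 genes (16.1%), with 1382 greater (9.76%) and 903 smaller (6.38%) in MPP2. Red cell and heme genes had 16 of 40 with a smaller, that is more negative, age difference in MPP2 and 1 with a greater. Their median in MEP was 0.06, with 2 higher and 3 lower, where 9.09% and 11.7% of all genes were. Klf1 averaged 1000 CPM in young and 1090 CPM in aged MEP, where MPP2 went from 15.4 to 5.49 CPM. For megakaryocyte and platelet genes it was 2 smaller and 9 greater, and their median in MEP was -1.0. Of 39 lymphoid priming genes, 31 were lower and 1 was higher in aged MEP, with a median of -2.53. Dntt had a mean of 55.4 CPM in young and no count in aged MEP. The part of such transcripts in the difference between MPP2 and MEP was not tested. Without 1 MPP2 library, 441 to 581 genes were smaller, the fewest without aged MPP2 replicate 1.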

How the data were processed

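Total RNA of sorted cells was amplified with a SMARTer Ultra Low Input kit and sequenced as single reads. Per the labels, the authors mapped reads to mm10 with TopHat2 2.0.13 and Bowtie2 2.1.0, and StringTie and DESeq2 are named as further tools. The deposited counts are raw whole numbers per gene symbol and sample. The authors' tables of comparisons (fold changes and p-values) and a table of DESeq2-normalized values were not used. The use of strand in counting is not given in the sources used here, so overlapping genes cannot be told apart.

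All 32 libraries were fitted by group in R 4.3.3 with edgeR 4.0.16's quasi-likelihood test, TMM scaling and filterByExpr, and contrasts were taken for aged minus young MPP2, that difference minus the mean of MPP1, MPP3 and MPP4, and that minus MEP. Genes were called at a Benjamini-Hochberg adjusted p under 0.01. SE is the absolute log2 fold change over the root of F. A gene without counts in a group was set at a floor of 3 counts per library for a bound, which covers counting error only. The scripts were tested on simulated data. Same-numbered libraries were not treated as pairs (correlation of deviations -0.116 in MPP2 and -0.429 to 0.252 over the 8 fractions), and duplicates differed by more than counting noise (chi-square per gene 4.45 in young and 4.71 in aged MPP2). DESeq2 1.42.0 and the other alternatives are given in the closing section.

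The members and gene lists were chosen with earlier results of these data known. Genes were named by rule: the 12 largest rises and falls among called genes with at least 5 CPM and no overlap, the 8 smallest p in each direction, up to 6 called genes each way of each contrast between fractions, up to 6 members of each list, sort antigens, cell type markers and genes the study names. Other called list members are named without values, and promoters are of called list members that hold the motif. Rhob, C3, Wfdc17, Hbb-bs, Rnf146 and Gm5148 were chosen after their values were seen. Gm21992, a readthrough gene, and 27 date-like names were passed over. Coordinates are from GENCODE M21 (GRCm38), promoters from RefSeq (GRCm38.p6), and 10646 of 14133 tested symbols matched a promoter. Some results of named items are not reported here.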

Additional observations from a re-analysis of the deposited data

Results flagged for a closer look

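The difference between MPP2 and other fractions in their age effect was tested as an interaction. Prg2 had a log2 age difference 7.04 higher in MPP2 than in the mean of MPP1, MPP3 and MPP4, Socs2 1.37 and Sdc1 1.11 higher, and Emilin2 a difference of -0.88. Aged MPP1, MPP3 and MPP4 had few or no counts of Prg2, so its fitted value has no true size. Against MEP, 1382 genes had a greater and 903 a smaller age difference in MPP2. Groups of 2 libraries are too small for a search for outlying samples.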

How the results depend on the processing

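For aged against young MPP2, DESeq2 called 971 genes higher and 916 lower, the fit of the 4 MPP2 libraries alone 1749 and 1587, an adjusted p under 0.05 gave 1208 and 963, and 53 and 178 also reached a log2 change of 1. DESeq2 size factors gave 581 and 504, and leaving out the filter on low counts 451 and 508, so that the share of higher calls moved from 57.6% to 53.5% and 47.0%. Leaving out 1 MPP2 library gave 159 to 317 higher and 128 to 168 lower, a setting in which the lone library is taken to vary like the other groups. With the replicate number as a block over all 32 libraries, 681 were higher and 477 lower, and with a replicate block within fraction 568 and 430. Crossing the pairing in MPP2, chosen after seeing the data, gave 577 and 448. What the replicate numbers mark is not given in the sources used here.

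For MPP2 against MPP1, MPP3 and MPP4, the counts were 12 greater and 19 smaller with DESeq2, 0 and 0 with the replicate block within fraction or its crossed form, 3 and 3 at an adjusted p under 0.05, 3 and 0 with a log2 difference of at least 1, and 1 to 2 and 0 to 1 without 1 library. For MPP2 against MEP, an adjusted p under 0.05 gave 2169 and 1591, a log2 difference of at least 1 gave 625 and 408, and leaving out 1 library 947 to 1217 and 441 to 581. Causes were not tested. Of 193 named genes called, none changed sign in any setting, 186 stayed called with DESeq2, 175 with the replicate block within fraction and 119 to 143 without 1 library. Most of these genes were named for the size, p or call of their change in the same libraries, so their stability is no independent evidence. With 2 libraries a group, an exact permutation test could not reach the threshold.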

Other observations

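A few genes were uneven between duplicates of MPP2. With at least 100 counts in 1 duplicate and 20-fold or more fewer in the other, there were 8 in young and 7 in aged MPP2, of 10223 genes with at least 100 counts in a library. Rnf146 had 1301 and 20 counts in young and 29 and 34 in aged MPP2, and Hbb-bs 729 and 2 in young and 1 in each aged library. Gm5148 had 889 and 1033 counts in young and none in aged MPP2, and it was also present in 1 duplicate and at 0 in the other in MPP1 and MPP3 of both ages, so its complete loss in aged MPP2 did not pass the test (adjusted p = 0.136).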
